A study of Mus musculus with 8 samples.

Results

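Leukocytes in blood and tissue carry a set of miRNAs that are scarce in muscle fibres. Levels of 8 such miRNAs were read from 1-colour arrays of mouse skeletal muscle: mmu-miR-223, mmu-miR-342-3p, mmu-miR-155, mmu-miR-142-3p, mmu-miR-142-5p, mmu-miR-150, mmu-miR-146a and mmu-miR-146b (the prefix, for mouse, is left out below). They were taken by name from the 567 mouse miRNAs on the array, and each of the 8 had 2 probes of 10 spots. Detection of a probe required at least 50% of its spots on that array to be well above background. Of the 8 miRNAs, 3 reached the minimum of 4 arrays for a test, 2 were detected on 3 arrays or fewer, and 3 on none of the 8 arrays.

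The diabetic animals were, by the study's design, obese C57BL/KsJ db/db mice, which lack a working leptin receptor and become obese and hyperglycaemic, and the controls were C57BL/KsJ db+ mice of the same strain. There were 4 arrays labelled diabetic and 4 labelled control by title, description and group entry, each made from 100 ng of total RNA. The strain entry of each sample names the opposite genotype (db+ for diabetic and db/db for control), so every direction below rests on the titles. Age, sex, the muscle taken and whether animals were pooled are not stated in the labels. Nothing in them says that the replicates came from separate animals, so the p-values measure the spread between these samples.

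miR-223 is abundant in neutrophils and other myeloid cells, where it restrains their activation. The miR-142 hairpin is expressed in all blood cell lineages and gives a mature strand from each arm. miR-150 marks mature lymphocytes and represses Myb, miR-342-3p is found in lymphoid and myeloid cells, and miR-155 is induced when macrophages and lymphocytes are activated. miR-146a and miR-146b are induced by inflammatory signalling through NF-kB and repress its adaptors Traf6 and Irak1.

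In RefSeq (GRCm38.p6) 7 of the 8 array names matched a mature sequence. They are shown because the seed, bases 2 to 8 from the 5′ end and printed in capitals, selects the target mRNAs, and because it shows which members could share targets.
miR-223: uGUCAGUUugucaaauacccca
miR-342-3p: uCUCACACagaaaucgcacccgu
miR-155: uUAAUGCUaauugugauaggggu
miR-142-3p: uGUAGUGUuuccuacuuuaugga
miR-142-5p: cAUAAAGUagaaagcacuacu
miR-146a: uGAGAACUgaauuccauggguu
miR-146b: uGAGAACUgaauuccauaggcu
The 7 sequences hold 6 different seeds. The seed GAGAACU is shared by miR-146a and miR-146b, which differ at 2 of 22 bases outside it, G18A and U21C, counted from the 5′ end of miR-146a. The other 5 seeds occur in no other mature sequence among the 1679 in the table. In the gene table of the same assembly, Mir342 lies within the span of Evl and Mir155 within that of Mir155hg, its primary transcript. The probe design names another build (mm9), so no coordinates are given.

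The arrays had different overall brightness, with a 75th percentile of 219 to 479 intensity units on the diabetic arrays and 308 to 618 on the control arrays. They detected 102 to 131 miRNAs on the diabetic arrays and 112 to 147 on the control arrays. Levels below are log2 values relative to that percentile, so that 0 is the percentile of the array and values under −5.95 were raised to −5.95, the floor. Muscle miRNAs dominated every array: miR-1 had a relative level of 4.91 to 4.996 on the diabetic arrays and 4.11 to 4.88 on the control arrays. Control 2 stood apart, with the lowest miR-1 (4.11) and miR-133a (3.71) of the 8 arrays and the highest level of several blood cell miRNAs, described below. Of the other muscle miRNAs, miR-133b was also lowest there (4.36), while miR-206 (0.73) and miR-208b (−4.23) were not. These are scaled levels, and control 2 had the largest percentile (618). The part of brightness in them was not tested. The differences of the tested leukocyte miRNAs and the control mean of miR-142-3p are also given without control 2. All diabetic arrays lay in slide row 2 and all control arrays in slide row 1 of the same slide, so that row and group cannot be told apart.

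Of the 3 tested leukocyte miRNAs, 0 passed the threshold (limma, Benjamini-Hochberg adjusted p under 0.05 over all 126 tested miRNAs), and 1 had an unadjusted p under 0.05. Over all tested miRNAs, 4.76% were called higher and 0% lower on the diabetic arrays, and an unadjusted p under 0.05 was reached by 6.35% on the higher and 10.3% on the lower side. All 3 log2 differences were below 0, as were 54% of all tested differences. Their median, which with 3 values is that of miR-342-3p alone, was −0.80, against −0.06 over all 126. Whole-tissue levels cannot tell the number of leukocytes from the amount of a miRNA in each of them or in other cells.

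**Figure D1:**
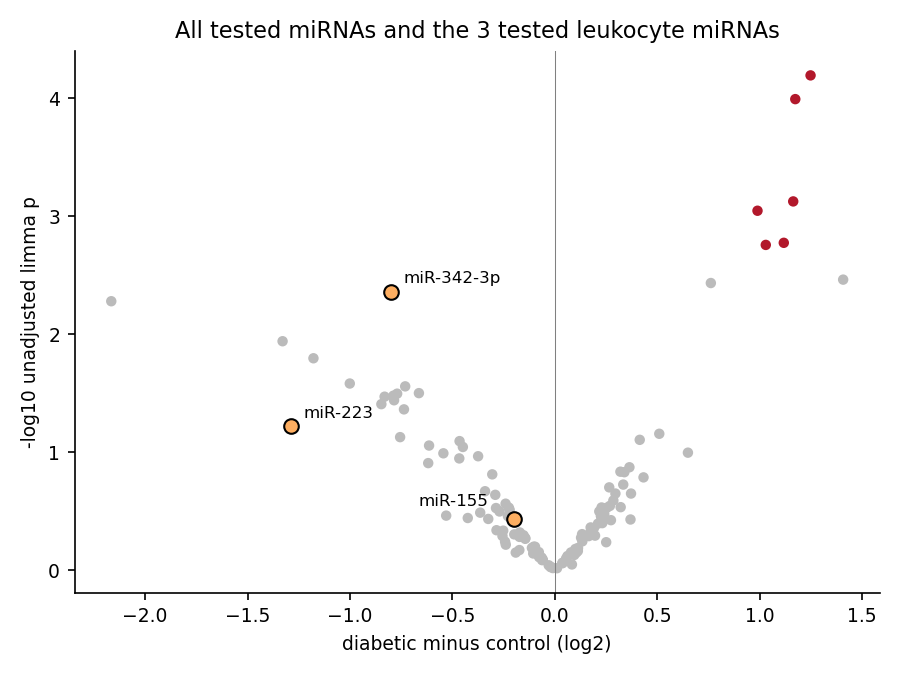
Each point is 1 of the 126 tested miRNAs, with its log2 difference, diabetic minus control, on the x axis and −log10 of its unadjusted limma p on the y axis. The 6 red points passed the adjusted threshold, all on the higher side, and the 3 orange points, miR-342-3p, miR-223 and miR-155, lie left of 0.

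miR-342-3p was lower on every diabetic array than on any control array. Its relative level was −3.85, −4.25, −4.26 and −4.07 on diabetic arrays 1 to 4, against −2.85, −3.42, −3.66 and −3.31 on control arrays 1 to 4. The groups did not overlap, and the gap between the lowest control and the highest diabetic array was 0.20. Among the 126 tested miRNAs it was the 1 with such a separation in the lower direction (0.794%), while 7.94% were separated in the higher direction and 8.73% in either. The mean was −4.11 ± 0.19 on the diabetic arrays and −3.31 ± 0.34 on the control arrays (SD, n = 4 each), a level 1.74-fold lower on the diabetic arrays. The log2 difference of −0.80 (SE 0.23, 95% interval −1.30 to −0.31) narrowly missed the threshold (limma adjusted p = 0.0611). It had the smallest p of all miRNAs with a lower value on the diabetic arrays.

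The difference of miR-342-3p was nearly the same without control 2, at −0.84, where it did not pass either (limma adjusted p = 0.107). It was −0.65 without control 1, the array on which it was highest. It passed without control 3 (−0.92, limma adjusted p = 0.0383), and in 8 of 26 alternative settings in all. Over the tested miRNAs, control 3 correlated better with the diabetic arrays (median r 0.982) than with the other control arrays (0.959). Every other array correlated better with its own group. The part of this in the call without control 3 was not tested. With scaling to the percentile of all mouse probes, the difference of miR-342-3p was −0.48 and the groups overlapped (limma adjusted p = 0.483). That scaling moved the median of all tested miRNAs to 0.26, and relative to the median the difference of miR-342-3p was −0.74 with it and −0.74 with the scaling used here. With normexp background correction of the raw median signals the difference was −0.20 (limma adjusted p = 0.998).

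miR-342-3p was dim, and its value came mainly from 1 of its probes. The brighter probe gave 37.9, 39.4, 31.8 and 20.9 intensity units on diabetic arrays 1 to 4, against 64.4, 88.7, 42.3 and 49.8 on control arrays 1 to 4. Before scaling, too, all diabetic arrays lay below all control arrays, with diabetic 2 and control 3 the closest. Without scaling the difference of miR-342-3p was −0.91 and did not pass (limma adjusted p = 0.279), while the median of all tested miRNAs was −0.13. The 8 to 10 spots of the brighter probe on each array scattered with a coefficient of variation of 5.06% to 14.9%, and all of them were well above background. In the fit over 207 probes its log2 difference was −0.79 (SE 0.22, limma adjusted p = 0.0648), where 4.35% of probes were called higher and 0% lower and 0.966% were lower with no overlap. The second probe had 5.19 to 26.5 units and was detected on control 1 and control 2 alone, so that it was not tested. Before scaling, the groups overlapped for this probe. It had 10.87 units on control 3, against 11.68, 10.93 and 11.36 on diabetic arrays 1 to 3, all below detection.

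miR-223, the brightest of the 8 on every array, varied most. Its relative level was −2.85, −2.20, −3.11 and −0.88 on diabetic arrays 1 to 4, against −0.82, 0.79, −2.07 and −1.80 on control arrays 1 to 4. The groups overlapped, because diabetic 4 lay above control 3 and control 4. The level on control 2 was 3.06-fold that of the next array, control 1, and 15.0-fold that of the lowest, diabetic 3. The mean was −2.26 ± 0.998 on the diabetic arrays and −0.97 ± 1.29 on the control arrays (SD, n = 4 each). Its SD on the control arrays was the second highest of the 126 tested miRNAs.

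The log2 difference of miR-223 was −1.29 (SE 0.62, 95% interval −2.64 to 0.06), a 2.44-fold lower mean on the diabetic arrays, and did not pass (limma adjusted p = 0.344). Control 2 carried much of it: without that array the control mean was −1.56 ± 0.66 (SD, n = 3) and the difference −0.70 (limma adjusted p = 0.502). Without diabetic 4 it was −1.75, and the groups then did not overlap, but the call did not change (limma adjusted p = 0.121). With normexp background correction, with the same offset of 50 units, it was −0.91 (SE 0.24) and passed (limma adjusted p = 0.00643). The part of the offset in that call was not tested. Both probes gave a like difference, −1.31 (SE 0.63) for the brighter and −1.16 (SE 0.56) for the dimmer. The brighter probe had 1917 units on control 2 and 81.7 to 312 on the other 7 arrays, with a coefficient of variation between its spots on an array of at most 10.98%.

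**Figure D2:**
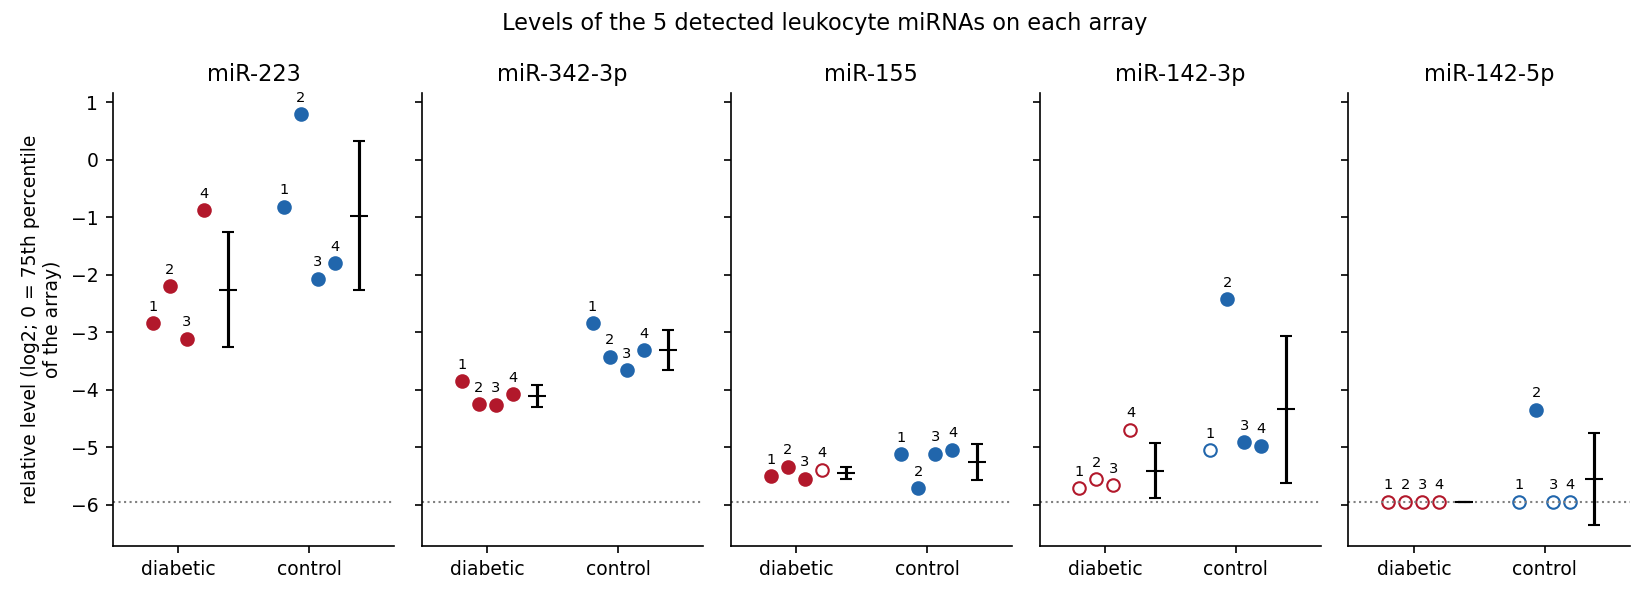
Relative log2 level of the 5 detected leukocyte miRNAs on each diabetic (red) and control (blue) array, numbered by replicate. Filled points were detected, open points were not, bars are the mean ± SD of 4 arrays, and the dotted line is the floor at −5.95. The groups of miR-342-3p do not overlap, and control 2 is the highest point of miR-223, miR-142-3p and miR-142-5p.

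miR-155 lay close to the detection limit on all arrays. Its relative level was −5.50, −5.34, −5.55 and −5.39 on diabetic arrays 1 to 4, against −5.12, −5.71, −5.11 and −5.04 on control arrays 1 to 4. The other 3 control arrays were above all diabetic arrays, and control 2 was below them all. The mean was −5.45 ± 0.097 on the diabetic arrays and −5.25 ± 0.31 on the control arrays (SD, n = 4 each), and the log2 difference was −0.20 (SE 0.21, 95% interval −0.67 to 0.27, limma adjusted p = 0.699). Without control 2 the control mean was −5.09 ± 0.045 (SD, n = 3) and the difference −0.36 (limma adjusted p = 0.152).

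Control 2, where the scaled level of miR-155 was lowest, was also the brightest array, and the part of brightness in that level was not tested. Before scaling, its mean over probes was 11.8 units on control 2 and 8.87 to 9.94 on the other control arrays, while the percentile used to scale was 618 on control 2 and 308 to 336 on the others. Its brighter probe had 10.99 to 24.3 units and was detected on 3 diabetic and 4 control arrays, and the second probe, at −1.48 to 0.64 units, was detected on none. The spots that the scanner software used as negative controls averaged 2.21 to 4.21 units per array. The sign of the miR-155 difference was not stable: it was 0.12 with the percentile over all mouse probes, 0.0074 with quantile normalization and 0.014 with normexp background correction. It was 0.997 with outlier spots kept, when a single spot of 5278 units on diabetic 2 entered the mean. Relative to the median of all tested miRNAs, the miR-155 difference was −0.14 both with the all-probe percentile and with the scaling used here. On that measure it was −0.058 with quantile normalization, 0.0014 with normexp and 1.01 with outlier spots kept.

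miR-142-3p was detected on 0 of 4 diabetic and 3 of 4 control arrays, under the minimum of 4 arrays for a test. Its relative level was −5.71, −5.55, −5.66 and −4.69 on diabetic arrays 1 to 4, against −5.05, −2.42, −4.91 and −4.97 on control arrays 1 to 4. Control 2 was the highest array, and diabetic 4, the next, had neither probe detected. Diabetic 4 was next only after scaling: its mean over probes was 8.49 units, against 10.2 on diabetic 2 and 11.2 on control 3. The brighter probe gave 176 units on control 2, 9.77 to 14.8 on the diabetic arrays and 15.3 to 18.9 on the other control arrays. The mean was −5.40 on the diabetic arrays and −4.34 on the control arrays, and −4.98 on the control arrays without control 2. No fold or bound is given, because miR-142-3p was not detected on control 1 or on any diabetic array. The scanner software's own call was looser and counted miR-142-3p as detected on all 8 arrays.

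The other strand of that hairpin, miR-142-5p, was detected on control 2 alone. Its probes had 29.3 and 31.7 units there and −0.35 to 2.56 units on the other 7 arrays, where it lay at the floor. All 4 probes of the 2 strands were thus detected on control 2, with 100% of their spots well above background. On no other array was more than 1 of the 4 detected.

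miR-150, miR-146a and miR-146b were detected on 0 arrays. Of the 460 spots of their 6 probes over all 8 arrays, 0 were well above background. The highest mean of any of these probes was 11.99 units, for miR-146a on control 2, and for miR-146a and miR-150 the remaining values on all arrays ran from −3.28 to 4.56 units. A probe of miR-146b had 3.27 to 8.13 units. These values bound the signal and do not show that the miRNAs were absent. The other strands on the array from the members' hairpins, miR-342-5p, miR-146b* and miR-150*, had 12 probes, with at most 4.82 units and 0 of 472 spots well above background.

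**Figure D3:**
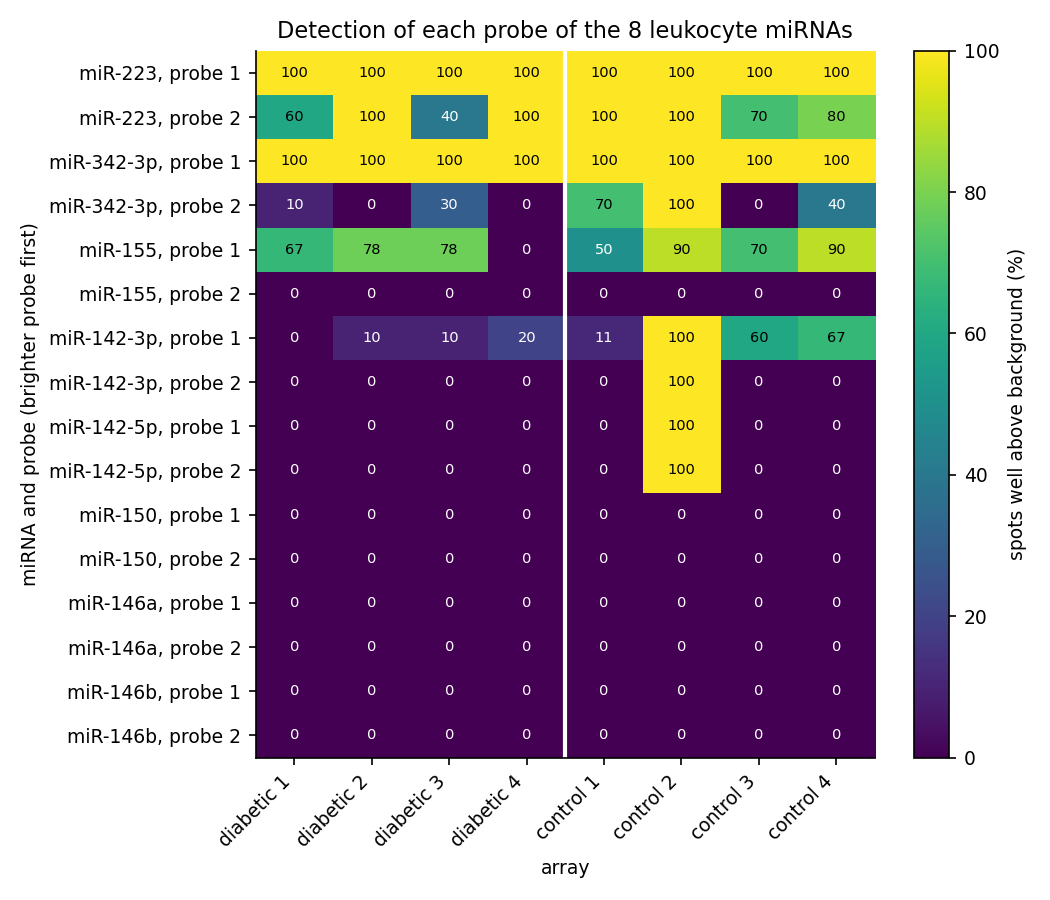
Percentage of spots well above background for each of the 16 probes of the 8 leukocyte miRNAs (rows, brighter probe first) on each array (columns, diabetic left of the white line and control right of it). Both miR-142-5p probes and the dimmer miR-142-3p probe reach 100% on control 2 and 0% on the other arrays, and the last 6 rows are 0% on all arrays.

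Of the 3 red blood cell miRNAs, miR-144 and miR-451 were also highest on control 2, while miR-486 was lowest there. The erythroid miR-144 had a relative level of −5.95, −5.95, −5.20 and −5.77 on diabetic arrays 1 to 4, against −5.95, −3.78, −5.37 and −5.83 on control arrays 1 to 4, and was detected on control 2 alone. miR-451, the main miRNA of red blood cells and encoded beside miR-144, had −0.20, −0.57, 0.57 and 0.51 on the diabetic arrays, against −0.23, 1.23, 0.38 and 0.23 on the control arrays. Its log2 difference was −0.33 (SE 0.35, limma adjusted p = 0.699), and −0.048 without control 2. miR-486, which muscle fibres also express, was at −1.64 on control 2, with a difference of −0.022 (SE 0.28, limma adjusted p = 0.958). The summed level of that list was 0.03 to 0.99 on the diabetic arrays, against 1.46 on control 2 and 0.62 to 0.78 on the other control arrays. The summed level of the leukocyte list itself was −2.26 to −0.59 on the diabetic arrays, against 1.06 on control 2 and −1.40 to −0.39 on the other control arrays. Levels were summed before log2, so miR-223 was the largest part of that sum on every array. On control 2 its log2 level was 0.79, against 1.06 for the sum. The sum therefore mainly repeats the values of miR-223. The part of blood in the differences of miR-223 and miR-142-3p was not tested.

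After scaling, miR-342-3p and miR-155 did not peak on control 2: miR-342-3p was highest on control 1 and lower on control 2 than on control 1 and control 4. Before scaling, the mean of miR-342-3p over its probes was highest on control 2, at 57.6 units, against 42.8 on control 1. The scaled levels of the fibroblast and stromal miRNAs had the same order at the top as those of miR-342-3p, control 1, control 4 and control 2. miR-199b was −1.64, −1.65, −1.77 and −1.95 on diabetic arrays 1 to 4, against −0.87, −1.498, −1.82 and −1.02 on control arrays 1 to 4. Of the 3 tested on that list, 0 passed and 3 had differences below 0, with a median of −0.54, and miR-199a-5p had the smallest p (−0.66, SE 0.27, limma adjusted p = 0.237), followed by miR-199b (−0.45, SE 0.24, limma adjusted p = 0.407). The summed level of the list was −1.47 to −1.26 on the diabetic arrays, against −1.41 to −0.35 on the control arrays. Unlike miR-342-3p, each of these 3 overlapped between the groups, since control 3 fell among the diabetic arrays or, for miR-214, below them. Their part in the difference of miR-342-3p was not tested.

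**Figure D4:**
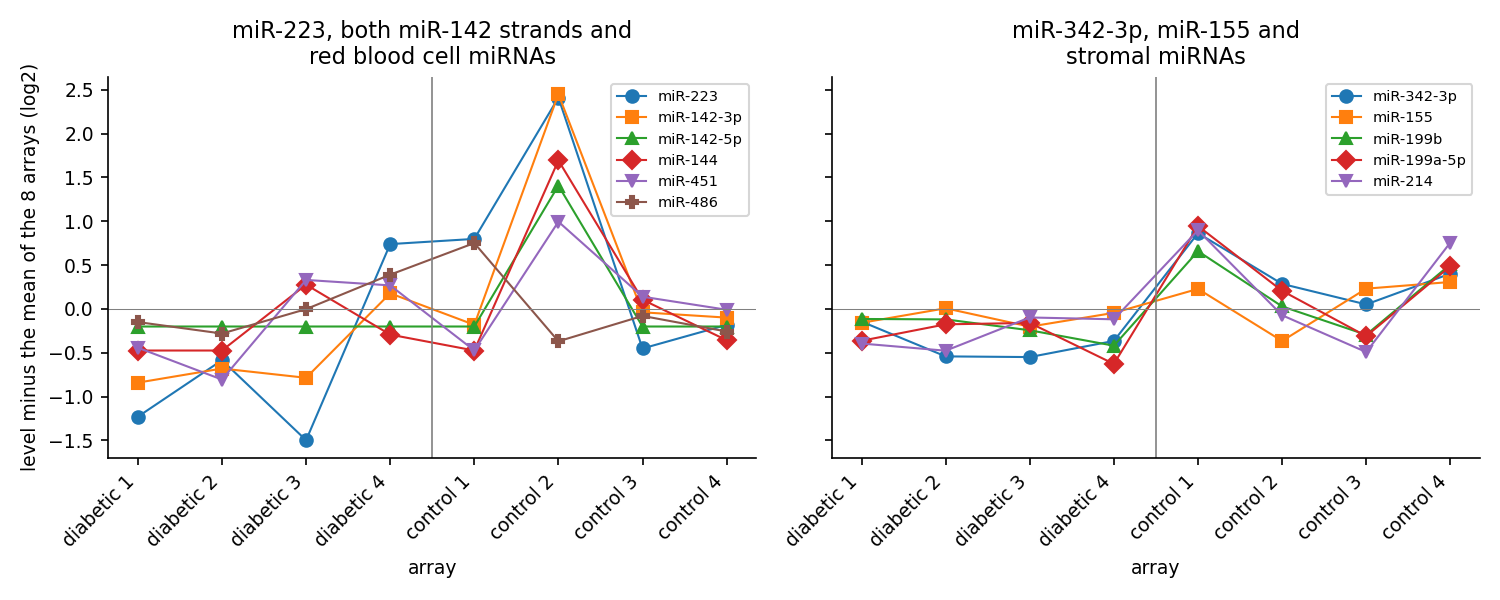
Relative level of each miRNA, after scaling, minus its own mean over the 8 arrays (log2), with diabetic arrays left of the vertical line and control arrays right of it. In the left panel miR-223, both miR-142 strands, miR-144 and miR-451 peak on control 2, where miR-486 is at its lowest, and in the right panel miR-342-3p and the stromal miRNAs peak on control 1.

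The miRNAs with the most like profiles were sought among the 126 tested, by the root mean square difference of log2 levels over the 8 arrays after each was centred on its own mean. For miR-342-3p they were miR-199b (0.25), miR-199a-5p (0.26) and miR-652 (0.28), where miR-342-3p itself had an SD of 0.50 over the arrays. The difference of miR-652 was −0.73 (SE 0.29, limma adjusted p = 0.237). For miR-223, with an SD of 1.27, they were miR-801 (0.54), miR-15b (0.66) and miR-714 (0.71). miR-15b differed by −0.74 (SE 0.32, limma adjusted p = 0.260), and its control arrays 1 and 2 stood at −1.61 and −0.76, against a diabetic mean of −2.39 ± 0.35 (SD, n = 4). miR-801 had the lowest difference of the 126 (−2.17, SE 0.63, limma adjusted p = 0.0663), and miR-714 differed by −0.76 (SE 0.39, limma adjusted p = 0.391). miR-801 and miR-714 lay at the floor on 1 and 6 arrays, so their distances are uncertain. For miR-155, with an SD of 0.24, they were miR-23a (0.091), miR-185 (0.10) and miR-24 (0.10), all with differences between −0.24 and −0.22. All profiles share the same 8 arrays and their scaling.

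Of 22 other miRNAs linked to immune cells, 14 were detected on at least 1 array and 9 were tested. On the diabetic arrays 0 were called higher and 0 lower with limma (4.76% and 0% of all tested), 4 of the 9 had differences below 0, and their median was 0.01. The smallest p belonged to miR-125a-5p, which tunes macrophage responses, at −0.79 (log2, SE 0.33, limma adjusted p = 0.237), and to miR-24 (−0.22, SE 0.20, limma adjusted p = 0.699). miR-21, induced in inflamed tissue, was at 1.51 ± 0.11 on the diabetic arrays and 1.37 ± 0.15 on the control arrays (SD, n = 4 each), with a difference of 0.13 (SE 0.19, limma adjusted p = 0.792). miR-132, miR-147, miR-187, miR-9, miR-181d, miR-17, miR-221 and miR-222 were detected on no array. In the miR-17 cluster, miR-18a was detected on control 2 alone (−4.37, at the floor elsewhere), and miR-19a had its highest level there (−4.66).

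Lists for the other cell types of muscle were read the same way. Of 6 skeletal muscle miRNAs, 5 were tested and 0 called, and the smallest p belonged to miR-206, which is raised in regenerating and slow fibres. Its relative level was 0.0093, −0.014, 0.20 and −1.75 on diabetic arrays 1 to 4, against 0.12, 0.73, 1.42 and 1.497 on control arrays 1 to 4, so that the groups overlapped. The difference of −1.33 (SE 0.44, limma adjusted p = 0.132) was as far below 0 as that of miR-223. miR-1 had the next smallest p (0.34, SE 0.22, limma adjusted p = 0.518). Of 4 endothelial and smooth muscle miRNAs, 2 were tested and 0 called, miR-126-3p at −0.065 (SE 0.23, limma adjusted p = 0.886) and miR-143 at −0.030 (SE 0.26, limma adjusted p = 0.940). The liver miRNA miR-122 differed by 0.083 (SE 0.62, limma adjusted p = 0.933).

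**Figure D5:**
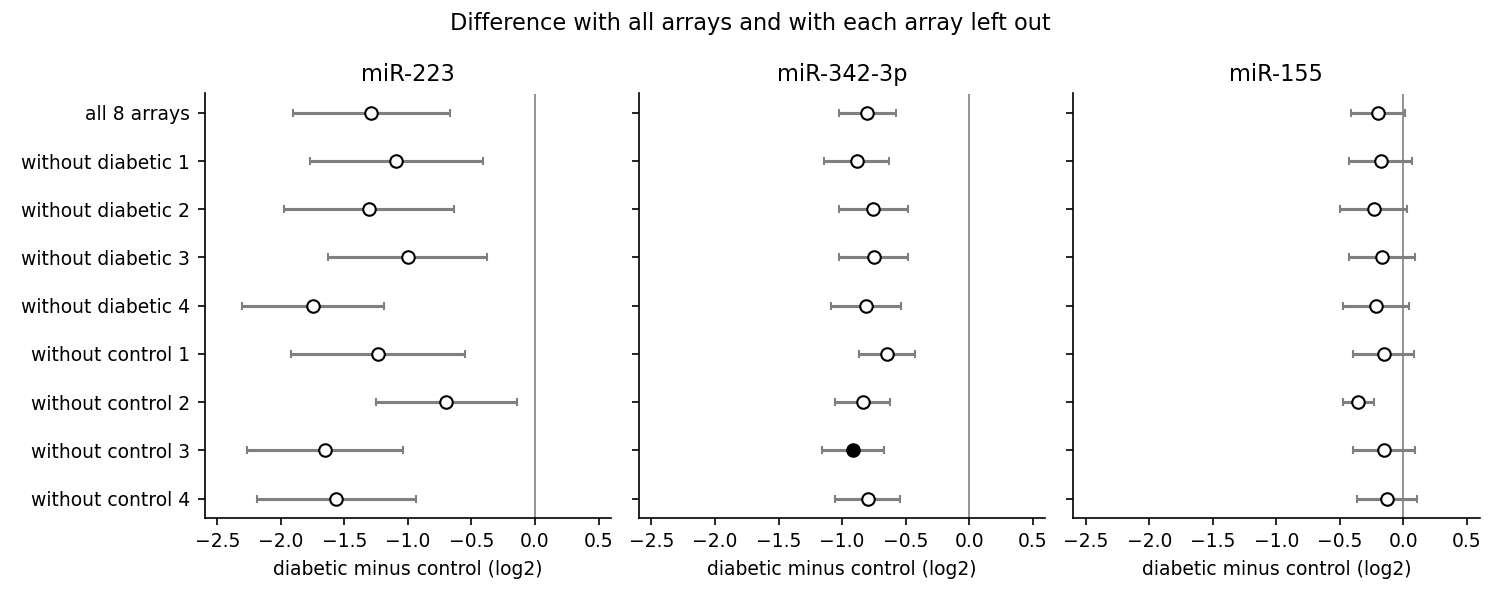
Log2 difference, diabetic minus control, of the 3 tested leukocyte miRNAs with all 8 arrays and with each array left out, with bars of 1 SE and a filled point where limma's adjusted p was under 0.05. miR-342-3p stays between −0.92 and −0.65, and miR-223 runs from −1.75 without diabetic 4 to −0.70 without control 2.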

How the data were processed

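Per the labels' protocols, 100 ng of total RNA was labelled with Cy3 for each of 8 1-colour Agilent arrays, and per the file headers the 8 shared 1 slide and 1 scan, quantified by Feature Extraction 10.5. The deposited intensity of a spot is, per the file headers, its signal after background and spatial trend were subtracted, with no normalization between arrays. The files also hold flags of 0 or 1.

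Non-outlier spots were averaged per probe and divided by the array's 75th percentile over the 152 mouse probes detected on all 8 arrays. Probes of a miRNA were averaged, set to at least 0.0162 (percentile 1 of all detected levels) and converted to log2. The 126 miRNAs detected on at least 4 arrays were tested with limma 3.58.1 in R 4.3.3 (group as the single term, Benjamini-Hochberg adjustment, threshold 0.05), a step tested on simulated data. The number of arrays limits the precision. The members, lists and rules were chosen with earlier results of these data known. Named are all members, their other strands, the 3 nearest profiles of each tested member and the 2 smallest p-values of a list. miR-18a, miR-19a, miR-144, miR-133a, miR-214, miR-21 and the undetected names were added after the values were seen. Alternatives covered scaling, background correction, probe summary, detection filter, floor, variance model, replicate block and each array left out. Figures were drawn with matplotlib 3.10.9.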

Additional observations from a re-analysis of the deposited data

Results flagged for a closer look

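Of 53 sets of 4 arrays examined for a single array far from the other 3, 7 had one. The measure is the gap to the nearest array divided by the range of the 4, with a critical value of 0.829. On the diabetic arrays, diabetic 4 was high for miR-142-3p (0.842), at −4.69 against −5.55 on the nearest, but its probes were not detected there, and low for miR-206 (0.888), at −1.75 against −0.014. Before scaling, the mean of miR-142-3p over its probes was lower on diabetic 4 (8.49 units) than on diabetic 2 (10.2 units). Diabetic 4 had the smallest percentile used to scale (219). On the control arrays, control 2 was the far array each time: high for miR-142-3p (0.946), miR-142-5p (1.0), miR-18a (1.0) and miR-19a (0.875), and low for miR-155 (0.883). For miR-142-5p and miR-18a the other 3 control arrays were tied at the floor, so that the ratio is 1.0 for any higher value. Chance gives such an array in about 1 in 20 sets of independent values. These sets share their arrays and hold floor values, and miR-18a and miR-19a were chosen after their values were seen, so the count is not read against that rate.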

How the results depend on the processing

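The log2 difference of miR-342-3p was below 0 in all 26 alternatives, from −0.95 to −0.20, with limma adjusted p from 0.0272 to 0.998. It passed with the median of the detected probes (−0.845), the brightest probe (−0.79), the scanner's total signal (−0.78), detection on all 8 arrays (−0.80), the stricter detection rule (−0.95) and array quality weights (−0.84). That of miR-223 was below 0 in all 26, and passed with normexp (−0.91). Normexp was run with an offset of 50 units, on raw median signals as chosen after the files were seen. That of miR-155 was reversed with scaling to all mouse probes (0.12), quantile normalization (0.0074), normexp (0.014) and outlier spots kept (0.997). It could not be tested with detection required on all 8 arrays or in all spots. With single arrays left out, miR-342-3p ran from −0.92 to −0.65, miR-223 from −1.75 to −0.70 and miR-155 from −0.36 to −0.13. The labels do not pair the samples by number, but a number is the same slide column in both groups. Deviations of same-numbered arrays correlated at 0.21, 0.082, 0.51 and −0.29, and 3 of 4 diabetic arrays correlated best with the control of their number. The replicate block left the differences as they were, and miR-342-3p passed (−0.80, limma adjusted p = 0.0426). Within columns 1 to 4 the differences were −1.01, −0.83, −0.60 and −0.77 for miR-342-3p, −2.03, −2.99, −1.05 and 0.92 for miR-223, and −0.39, 0.37, −0.43 and −0.35 for miR-155. With this block 1 leukocyte miRNA was lower, and 7 tested miRNAs were higher and 3 lower.

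Leukocyte miRNAs called lower were 1 with the median of detected probes, normexp, the brightest probe, the total signal, detection on all 8 arrays, the stricter detection rule and array quality weights, and 0 to 1 with single arrays left out. Tested miRNAs called higher were 0 without scaling, 2 with detection on at least 1 array, 2 with no filter and 2 to 7 with single arrays left out. Those called lower were 3 with normexp, 2 with the median of detected probes, quantile normalization, the brightest probe and detection on all 8 arrays, 1 with scaling to all mouse probes, the total signal, the stricter rule and array weights, and 0 to 3 with single arrays left out. The cause was not tested. Signals near background limit miR-155, miR-142-3p and miR-142-5p.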
